A study of Mus musculus with 4 samples.

Results

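Histone genes were followed in the polyadenylated RNA of mouse embryonic stem cells. A row of the mRNA table was a member when its symbol began with Hist1h, Hist2h, Hist3h, Hist4h, H2af or H3f, or was H1f0 or H1fx. This gave 70 of 13815 rows, 59 replication-dependent genes (symbols beginning with Hist) and 11 replacement genes. The first class held 3 linker histone H1 genes, 16 H2A, 18 H2B, 10 H3 and 12 H4 genes, and the second held 2 linker, 7 H2A and 2 H3 genes. Matching by accession to RefSeq of the assembly GRCm38.p6 found 69 of the 70.

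Histones are the proteins around which DNA is wound in nucleosomes, a core of H2A, H2B, H3 and H4 with linker histone H1 outside. Replication-dependent histone genes lie in clusters, mostly have no introns and are transcribed in S phase. Most of their transcripts end in a conserved stem-loop made by U7 snRNP, bound by SLBP, and carry no poly(A) tail. Their reads in a poly(A)-selected library therefore come from a minor, polyadenylated or carried-over part of their mRNA, and do not measure the main stem-loop transcripts. Replacement histones are made throughout the cell cycle from polyadenylated, mostly spliced mRNAs, and take the place of the canonical proteins at particular regions of chromatin. H2afx, which encodes H2A.X, is an exception, since its transcripts can be made with either kind of end. Mature miRNAs of stem cells are known regulators of the G1 to S transition in mouse, which sets the period in which canonical histones are made.

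The 3 mRNA libraries were from dgcr8-/- mESCs, dicer-/- mESCs and WT mESCs, all labelled with the strain V6.5 and grown with leukaemia inhibitory factor and serum. DGCR8 is the partner of Drosha in the nuclear step of miRNA processing, and Dicer makes the mature duplex in the cytoplasm, so each knockout lacks another step of the same pathway. The labels do not describe the knockout alleles, the number of clones or the age of the lines. There was 1 library of each genotype and no replicate, so no test was made and no p-value is given, and genotype, cell line and culture cannot be told apart. The libraries held 11123498, 12309100 and 9931625 counts, and values are given as CPM, counts scaled to a common library total, of which 1 was 11.12, 12.31 and 9.932 counts in the Dgcr8 knockout, the Dicer knockout and WT. Dgcr8 was at 20.9, 84.7 and 52.7 CPM, and Dicer1 at 128, 20.1 and 79.9 CPM, in the same order, each lowest in its own knockout. All 7 stem cell markers had counts in every library and summed to 6909 CPM in the Dgcr8 knockout, 7542 CPM in the Dicer knockout and 9673 CPM in WT. Dppa5a alone gave 2715, 4222 and 5564 CPM of these sums. Above WT were 4 of the 7 markers in the Dgcr8 knockout and 3 of 7 in the Dicer knockout. By 2-fold, 1 of the 7 was lower than WT in each knockout and 0 were higher, where 8.02% and 9.7% of all genes were lower. The lowest log2 ratio of CPM + 1 was -1.035 in the Dgcr8 knockout, of Dppa5a. In the Dicer knockout it was -2.346, of Zfp42. Of 7 feeder fibroblast and stromal markers only Thy1, Col1a1 and Pdgfra were in the table. They summed to 2.97 CPM in the Dgcr8 knockout, 1.95 CPM in the Dicer knockout and 30.7 CPM in WT, and their part in any histone difference below was not tested. Primitive endoderm markers (3 of 4 in the table) summed to 8.36, 6.58 and 4.13 CPM in the same order. Of these, Gata4 was above WT in both knockouts at 7.73, 6.09 and 1.51 CPM, while Sox7 (0.360, 0.487 and 1.51 CPM) and Gata6 (0.270, 0 and 1.11 CPM) were below it. In such bulk RNA, fewer cells of a type and less RNA per cell cannot be told apart.

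Short motifs known from histone promoters were looked up in the sequence upstream of the members. The promoter table of RefSeq (GRCm38.p6) matched 62 of the 70 genes with 63 windows, of which the 250 bases before the annotated start were searched on both strands. The letters CCAAT (the CCAAT box, bound by NF-Y) were in 83.3% of 54 replication-dependent windows, 55.6% of 9 replacement windows and 33.8% of all 32851 promoters. The TATA box, letters TATAAA, was found in 46.3%, 11.1% and 12.4%, and the octamer ATTTGCAT (bound by POU factors) in 22.2%, 11.1% and 1.6%. The letters GGGCGG (a GC box, bound by SP factors) were in 27.8%, 66.7% and 32.7%, and the cyclic AMP response element TGACGTCA in 7.41%, 0% and 1.55%. All 16 H2A and all 16 H2B windows of the replication-dependent class held CCAAT, against 3 of 11 H4 windows, while GGGCGG was in 8 of 11 H4 windows and 0 of 16 H2B windows. A match describes the letters and not a bound site, neighbouring H2A and H2B genes share part of their windows, and no motif contains another.

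The windows of 6 genes named in the results below are printed, and no level was tested against their motifs. H3f3a (chr1:180813606-180813855 on the minus strand) and H3f3b (chr11:116024505-116024754 on the minus strand) encode the same H3.3 protein and differed from WT in opposite directions. The window of Hist1h2bk (chr13:22035571-22035820 on the plus strand) overlaps that of its H2A neighbour Hist1h2ah, read from the other strand. Hist1h4d (chr13:23581318-23581567 on the plus strand) is 1 of the H4 genes with no count in the Dgcr8 knockout. The windows of those genes differ among themselves in the motifs they hold, so this window does not represent the others. Hist1h4i (chr13:22041363-22041612 on the minus strand) is the H4 gene with the most counts. Hist1h1c (chr13:23738557-23738806 on the plus strand) is the replication-dependent linker gene with the most counts. Coordinates are of GRCm38.p6, sequences run 5′ to 3′ up to the base before the start, and capitals mark the motifs above on either strand.
H3f3a: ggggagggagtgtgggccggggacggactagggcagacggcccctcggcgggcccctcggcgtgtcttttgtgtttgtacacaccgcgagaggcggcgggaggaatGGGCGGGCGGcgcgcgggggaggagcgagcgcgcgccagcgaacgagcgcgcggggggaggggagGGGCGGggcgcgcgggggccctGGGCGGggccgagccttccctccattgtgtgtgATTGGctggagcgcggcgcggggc
H3f3b: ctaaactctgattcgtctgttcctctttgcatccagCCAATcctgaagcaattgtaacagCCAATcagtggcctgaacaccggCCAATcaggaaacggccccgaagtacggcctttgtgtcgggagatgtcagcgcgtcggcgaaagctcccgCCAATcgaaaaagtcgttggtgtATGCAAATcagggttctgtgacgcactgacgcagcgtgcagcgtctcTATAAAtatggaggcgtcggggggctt
Hist1h2bk: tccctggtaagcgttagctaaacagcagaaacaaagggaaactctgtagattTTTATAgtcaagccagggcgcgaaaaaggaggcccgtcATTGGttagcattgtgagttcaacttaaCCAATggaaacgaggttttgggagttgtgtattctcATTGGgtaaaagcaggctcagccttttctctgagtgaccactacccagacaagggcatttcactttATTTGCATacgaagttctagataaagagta
Hist1h4d: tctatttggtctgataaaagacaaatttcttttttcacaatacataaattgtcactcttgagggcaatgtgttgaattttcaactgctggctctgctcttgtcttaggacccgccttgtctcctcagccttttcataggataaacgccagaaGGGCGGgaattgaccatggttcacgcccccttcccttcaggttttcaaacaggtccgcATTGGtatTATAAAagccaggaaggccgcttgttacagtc
Hist1h4i: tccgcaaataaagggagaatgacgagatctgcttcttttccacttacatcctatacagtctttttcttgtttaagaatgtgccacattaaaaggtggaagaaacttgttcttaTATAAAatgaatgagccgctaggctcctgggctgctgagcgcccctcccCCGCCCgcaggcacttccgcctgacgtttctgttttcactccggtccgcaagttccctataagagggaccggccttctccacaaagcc
Hist1h1c: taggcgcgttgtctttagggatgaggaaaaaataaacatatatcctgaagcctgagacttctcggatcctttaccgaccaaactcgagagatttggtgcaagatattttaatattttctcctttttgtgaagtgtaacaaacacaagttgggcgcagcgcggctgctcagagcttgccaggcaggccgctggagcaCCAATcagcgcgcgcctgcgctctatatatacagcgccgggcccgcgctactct

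The H3f3a window holds the GC box at 4 places, CCAAT at 1 place and neither of the TATA and octamer letters. The H3f3b window holds a TATA box 27 bases before the start, CCAAT at 4 places and the octamer, and no GC box. Among H2B windows 8 of 16 held the TATA letters and 6 of 16 the octamer.

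The H3.3 genes, which encode the replacement H3 deposited by HIRA and by DAXX with ATRX, were counted apart in the table. H3f3a was at 1136 CPM in the Dgcr8 knockout, 941 CPM in the Dicer knockout and 717 CPM in WT, and H3f3b at 467, 612 and 715 CPM. Their levels were alike in WT, and in both knockouts H3f3a was the higher and H3f3b the lower. The ratio of H3f3a to WT was 1.58 in the Dgcr8 knockout (95% counting interval 1.54 to 1.63) and 1.31 in the Dicer knockout (1.27 to 1.35). H3f3b was at 0.654 of WT (0.631 to 0.677) and 0.856 of WT (0.829 to 0.884). H3f3a thus gave 70.8% of H3.3 counts in the Dgcr8 knockout (exact Clopper-Pearson 95% interval 70.2 to 71.5), 60.6% in the Dicer knockout (59.9 to 61.3) and 50.1% in WT (49.2 to 50.9). These shares lie within a library and do not depend on scaling. The sum of both genes was 1604, 1553 and 1432 CPM, 1.12 times WT in the Dgcr8 knockout and 1.08 times in the Dicer knockout; with median-ratio scaling these became 1.02 and 1.003. Processed copies of H3f3a exist in the mouse genome, and how reads matching more than 1 copy were counted is not stated in the labels used here. All counting intervals are too narrow if both mates of a read pair were counted, as even values among counts of 2 to 9 (74.8%, 69.7% and 69.6% of genes) leave possible.

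**Figure D1:**
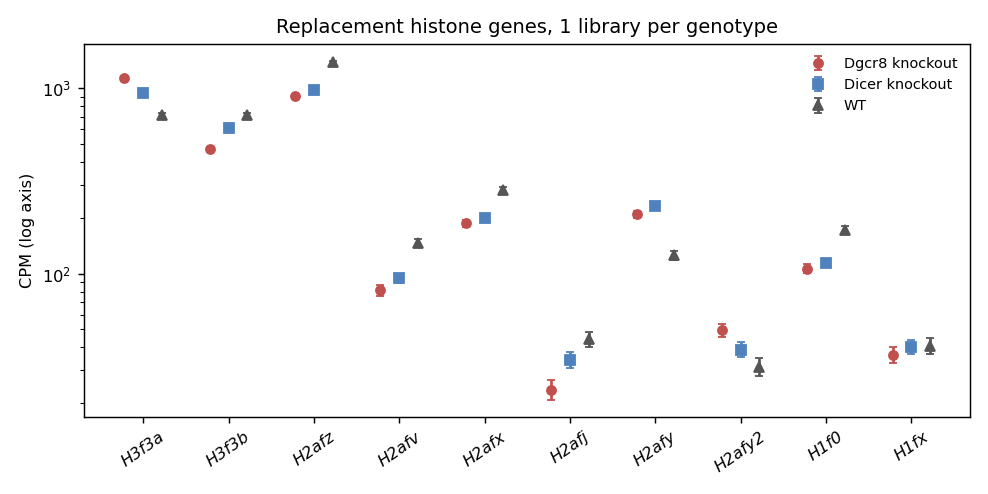
Level of 10 replacement histone genes in CPM on a log axis, by gene; circles are the Dgcr8 knockout, squares the Dicer knockout and triangles WT, with exact Poisson 95% counting intervals. H3f3a, H2afy and H2afy2 were highest in a knockout, and H3f3b, H2afz, H2afv, H2afx, H2afj and H1f0 were highest in WT.

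The H2A.Z genes, whose protein marks promoters and enhancers and is loaded by the SRCAP and EP400 complexes, were lower in both knockouts. H2afz was at 904, 983 and 1382 CPM in the Dgcr8 knockout, the Dicer knockout and WT, ratios to WT of 0.655 (0.638 to 0.672) and 0.712 (0.694 to 0.729). H2afv, the second H2A.Z gene, was at 81.3, 94.2 and 146 CPM, ratios of 0.557 (0.512 to 0.606) and 0.646 (0.598 to 0.699). The pair kept nearly the same balance, with H2afz giving 91.8% of their counts in the Dgcr8 knockout (91.2 to 92.3), 91.3% in the Dicer knockout (90.8 to 91.7) and 90.5% in WT (90.0 to 90.9). H2afx, whose protein is phosphorylated around DNA breaks, was at 186, 200.5 and 282 CPM, ratios of 0.661 (0.625 to 0.700) and 0.712 (0.674 to 0.752). H2afj, which encodes the variant H2A.J, was at 23.6, 34.1 and 44.2 CPM, ratios of 0.535 (0.457 to 0.625) and 0.772 (0.674 to 0.884). All 4 genes were highest in WT and lowest in the Dgcr8 knockout.

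The macroH2A genes were higher in both knockouts. Their proteins carry a large macro domain beside the histone fold and are known from the inactive X chromosome and from genes silenced during differentiation. H2afy (macroH2A1) was at 209 CPM in the Dgcr8 knockout, 231 CPM in the Dicer knockout and 126 CPM in WT, ratios of 1.66 (1.55 to 1.78) and 1.84 (1.72 to 1.96). H2afy2 (macroH2A2) was at 49.4, 38.8 and 31.3 CPM, ratios of 1.58 (1.37 to 1.82) and 1.24 (1.07 to 1.44). Both knockouts were thus above WT for both genes, H2afy more so in the Dicer knockout and H2afy2 more so in the Dgcr8 knockout. Together they gave 17.7% of replacement H2A counts in the Dgcr8 knockout (17.2 to 18.3), 17.0% in the Dicer knockout (16.5 to 17.6) and 7.81% in WT (7.44 to 8.19). H2afy3, listed with a noncoding RefSeq entry that GRCm38.p6 calls a transcribed pseudogene, had 17, 0 and 4 counts, too few to describe beyond these values.

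The replacement linker histones differed between themselves. H1f0, known from resting and differentiated cells, was at 106 CPM in the Dgcr8 knockout, 114 CPM in the Dicer knockout and 172 CPM in WT, ratios of 0.618 (0.573 to 0.666) and 0.664 (0.618 to 0.712). H1fx, which encodes H1.10, was at 36.5, 40.1 and 40.9 CPM, and its ratios of 0.893 (0.776 to 1.03) and 0.982 (0.859 to 1.12) had intervals that include 1. H1f0 gave 74.5% of the pair's counts in the Dgcr8 knockout (72.3 to 76.6), 74.0% in the Dicer knockout (72.0 to 76.0) and 80.8% in WT (79.1 to 82.5).

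**Figure D2:**
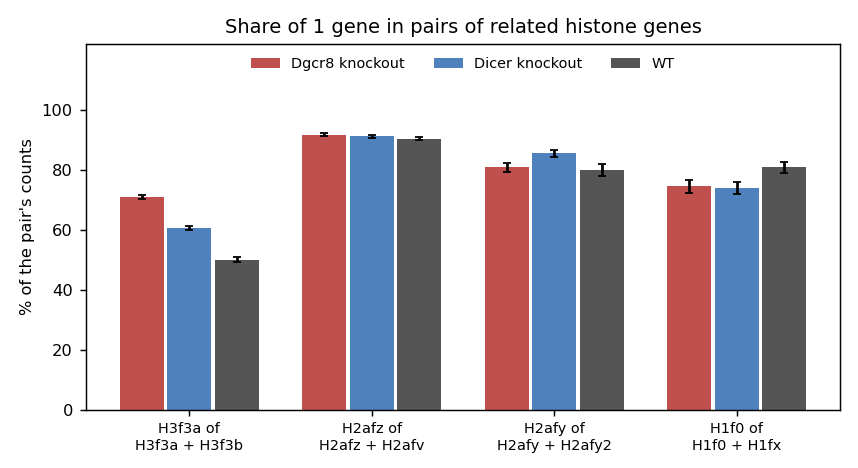
Share of counts given by the first gene of 4 pairs of related replacement histone genes, in percent, for the Dgcr8 knockout, the Dicer knockout and WT; error bars are exact Clopper-Pearson 95% intervals. The H3f3a share was 70.8%, 60.6% and 50.1%, while the H2afz share lay between 90.5% and 91.8%.

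As a class, no replacement gene differed by 2-fold on the log2(CPM + 1) scale in a knockout against WT. In the Dgcr8 knockout this was 0 of 11 genes in either direction, where 14.3% of all 13223 genes tested (1 CPM or more in either library) were 2-fold higher and 8.02% lower than in WT. In the Dicer knockout it was 0 of 10, against 16% and 9.7% of 13403 genes. At 1.5-fold, 4 of 11 were higher in the Dgcr8 knockout (H3f3a, H2afy, H2afy2 and H2afy3, of which H2afy3 reached 1 CPM in that library only) and 6 lower, where 27.1% and 17.7% of all genes were. In the Dicer knockout 1 of 10, H2afy, was 1.5-fold higher and 2, H1f0 and H2afv, were lower. Those are 10% and 20% of the class, where 28% of all genes were higher and 19.7% lower. The median log2 ratio of the Dgcr8 knockout to WT was -0.59, beside 0.11 over all genes, and that of the Dicer knockout -0.29, beside 0.10. Summed over the class, replacement genes held 3202 CPM in the Dgcr8 knockout, 3289 CPM in the Dicer knockout and 3656 CPM in WT. That sum was 0.876 of WT in the Dgcr8 knockout and 0.900 of WT in the Dicer knockout. Without H2afz it was near WT, at 1.01 and 1.01, a value taken at total-count scaling only. Both comparisons use the same WT library, so their likeness is not independent. Other scalings moved the median of all genes by -0.13 to -0.10 and turned the direction of no replacement gene.

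**Figure D3:**
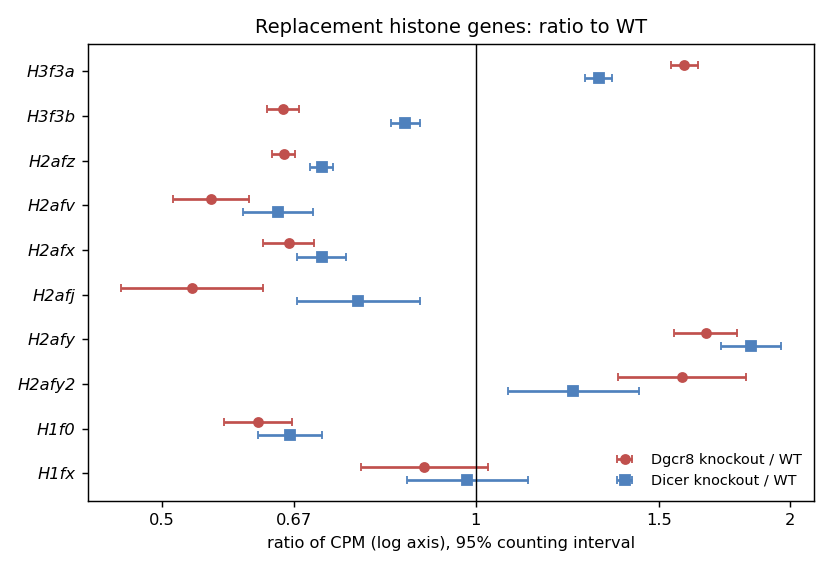
Ratio of CPM to WT on a log axis for 10 replacement histone genes, circles for the Dgcr8 knockout above squares for the Dicer knockout; bars are exact conditional binomial 95% counting intervals and the line marks no difference. H3f3a and the macroH2A genes H2afy and H2afy2 lie above 1, H1fx reaches it, and the other 6 lie below.

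The replication-dependent genes gave few reads. They summed to 215 CPM in the Dgcr8 knockout, 307 CPM in the Dicer knockout and 252 CPM in WT, and the highest level of any was 15.9 CPM. Their share of all histone counts was 6.30% in the Dgcr8 knockout, 8.54% in the Dicer knockout and 6.44% in WT. Many of these genes are near-identical copies, and 4 pairs had the same counts in all 3 libraries (Hist1h4c and Hist1h4n, Hist1h4b and Hist1h4h, Hist2h2aa1 and Hist2h2aa2, Hist1h2bq and Hist1h2br). A read may have been counted for several copies, so the sums can hold the same read more than 1 time, no interval is given for them, and members are not independent. Counted only through the member with the most counts of each type, the sum was 0.931 of WT in the Dgcr8 knockout and 1.54 times WT in the Dicer knockout, beside 0.855 and 1.22 for all members.

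**Figure D4:**
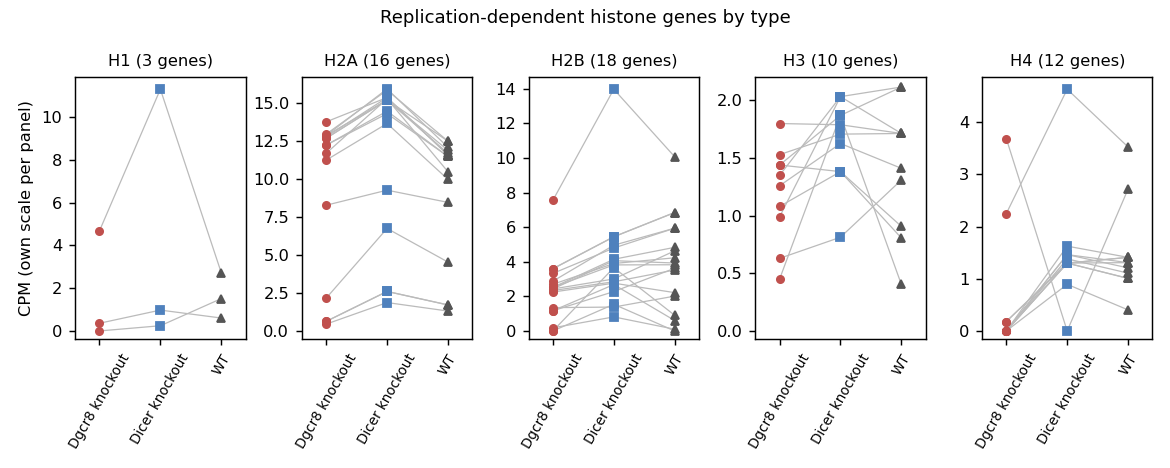
Level in CPM of the replication-dependent histone genes by type, 1 panel per type with its own linear scale; each grey line joins 1 gene across the Dgcr8 knockout (circles), the Dicer knockout (squares) and WT (triangles). The 12 Hist1h2a genes lay between 8.27 and 15.9 CPM and were highest in the Dicer knockout, while most H4 genes were at or near 0 in the Dgcr8 knockout.

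The 11 replication-dependent genes with the most counts over the 3 libraries were all Hist1h2a genes. The 12 Hist1h2a genes had 92 to 153 counts in the Dgcr8 knockout (median 141), 114 to 196 in the Dicer knockout (median 187) and 84 to 124 in WT (median 115). Hist1h2ag, with the most counts, was at 12.9, 15.8 and 12.5 CPM, ratios to WT of 1.04 (0.810 to 1.33) and 1.27 (1.01 to 1.60). Hist1h2ad was at 12.9, 15.9 and 12.1 CPM, Hist1h2ao at 13.8, 15.4 and 11.6 CPM and Hist1h2ae at 12.9, 15.2 and 12.5 CPM. All 16 H2A genes were above WT in the Dicer knockout (log2 ratios 0.12 to 0.50), beside 7355 of 13403 over all genes. None of the 16 was 1.5-fold higher, where 28% of all genes were. In the Dgcr8 knockout the sum of the 16 was 1.04 times WT, but 0.941 of WT with median-ratio scaling. Neither the sum nor several of its genes thus have a settled direction.

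H2B genes were lower in the Dgcr8 knockout than in the other libraries. Their sum was 42.0 CPM there, 71.5 CPM in the Dicer knockout and 70.1 CPM in WT. Of 15 tested H2B genes, 13 were below WT in the Dgcr8 knockout, beside 5795 of 13223 over all genes. Other scalings add Hist1h2bb to the 13. Hist1h2bc, with the most counts, was at 7.55, 14.0 and 10.1 CPM, ratios to WT of 0.750 (0.554 to 1.01) and 1.39 (1.08 to 1.79). Hist1h2bk was at 3.33, 4.79 and 5.94 CPM, ratios of 0.560 (0.361 to 0.859) and 0.807 (0.553 to 1.18). Hist1h2bq and Hist1h2br, with identical counts, had 40, 67 and 68 counts each. Hist1h2bf was at 1.17, 2.27 and 3.62 CPM, 0.322 of WT in the Dgcr8 knockout (0.157 to 0.623). The H2A neighbour of Hist1h2bk, Hist1h2ah, whose window overlaps the printed one, was at 12.7, 15.2 and 11.7 CPM.

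H3 genes were low in every library, with 5 to 20 counts in the Dgcr8 knockout, 10 to 25 in the Dicer knockout and 4 to 21 in WT. Hist1h3i was at 1.35, 2.03 and 2.11 CPM, Hist1h3h at 1.44, 1.87 and 2.11 CPM, Hist1h3b at 1.80, 1.79 and 1.71 CPM and Hist1h3c at 1.53, 1.71 and 1.71 CPM. The ratios of Hist1h3b to WT, 1.05 (0.523 to 2.14) and 1.04 (0.530 to 2.09), show how little this depth can resolve.

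Most H4 genes were all but missing from the Dgcr8 knockout. Of the 12, 9 Hist1h4 genes had 0 counts there (empty cells) or, for Hist1h4b and Hist1h4h, 2 counts, with 16 to 20 in the Dicer knockout and 10 to 14 in WT. Hist1h4m had 0, 20 and 14 counts. With its 0 set to a floor of 3 counts, it was 5.23-fold lower in the Dgcr8 knockout than in WT. This leaves out the counting error of the 14. Hist1h4d, whose promoter is printed above, had 0, 16 and 13 counts. Hist1h4f was low throughout, with 0, 11 and 4 counts. Hist1h4i, the H4 gene with the most counts, did not share this pattern, with 25, 57 and 35 counts and a ratio to WT of 0.638 (0.366 to 1.10) in the Dgcr8 knockout. Hist2h4, from the chromosome 3 cluster, had 41 counts in the Dgcr8 knockout, 0 in the Dicer knockout and 27 in WT. Against the same floor it was 11.2-fold lower in the Dicer knockout than in WT. H4 genes carry nearly the same coding sequence, so the 9 may hold the same few reads.

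**Figure D5:**
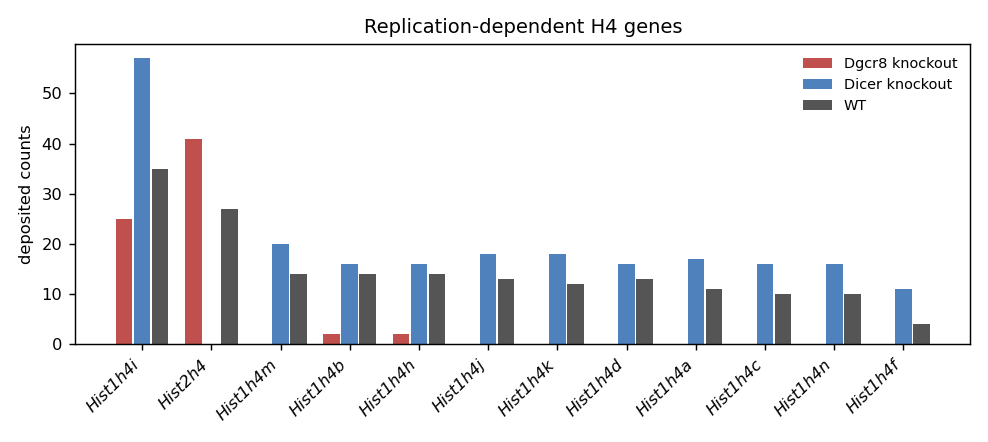
Deposited counts of the 12 replication-dependent H4 genes, by gene, for the Dgcr8 knockout, the Dicer knockout and WT; a missing bar is an empty cell read as 0. Hist1h4i and Hist2h4 had 25 and 41 counts in the Dgcr8 knockout, where no other H4 gene exceeded 2.

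Hist1h1c and the genes of the small Hist2 and Hist3 clusters, other than Hist2h4, were highest in the Dicer knockout. Hist1h1c, which encodes H1.2, had 52 counts in the Dgcr8 knockout, 139 in the Dicer knockout and 27 in WT, 1.72 times (1.06 to 2.85) and 4.15 times WT (2.74 to 6.53). Hist1h1a went the other way, with 0, 3 and 15 counts, and Hist1h1d had 4, 12 and 6. Hist1h2ba, the testis H2B gene, had 2, 10 and 1. The Hist3 genes on chromosome 11, Hist3h2a, Hist3h2ba and Hist3h2bb-ps (a pseudogene by its symbol), had 24, 0 and 0 counts in the Dgcr8 knockout, against 83, 45 and 19 in the Dicer knockout, and 45, 9 and 0 in WT. Hist3h2ba was 4.03 times WT in the Dicer knockout (1.95 to 9.39). Against the floor that replaced its 0, it was 3.36-fold lower than WT in the Dgcr8 knockout. The lower side rests on the 9 counts of WT, as both of those libraries were under 1 CPM. In the Hist2 cluster on chromosome 3, Hist2h2be had 13, 33 and 6 counts, 4.44 times WT in the Dicer knockout (1.84 to 13.0), and Hist2h3c1 had 5, 23 and 4. Hist2h2aa1 and Hist2h2aa2 had 7, 32 and 17 counts each, and Hist2h2ac had 5, 23 and 13.

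Counted by the 2-fold rule, 11 of 53 tested replication-dependent genes were lower in the Dgcr8 knockout than in WT (20.8%, background 8.02%) and 0 were higher. The 11 were 9 H4 genes, Hist1h2bf and Hist1h1a, and 10 of them reached 1 CPM in WT only, so they could only come out lower. In the Dicer knockout 5 of 56 were higher (8.93%, background 16%) and 2 lower (3.57%, background 9.7%). The 5 were Hist1h1c, Hist2h2be, Hist2h3c1, Hist3h2ba and Hist3h2bb-ps, of which all but Hist1h1c reached 1 CPM in the Dicer knockout only, and the 2 were Hist1h1a and Hist2h4, which reached 1 CPM in WT only. Tested members had a median log2 ratio to WT of -0.45 in the Dgcr8 knockout, where all genes had 0.11, while in the Dicer knockout it was 0.17, beside 0.10.

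Per length, levels can be set side by side for genes without introns, with lengths from GRCm38.p6. This evens out length only. Rows of replication-dependent genes hold a minor part of their mRNA and may share reads between copies, so the classes stay unlike. The median of the 16 replication-dependent H2A genes was 23.8 CPM per kb in the Dgcr8 knockout, 28.7 in the Dicer knockout and 21.7 in WT, while the replacement H2A gene H2afx was at 137, 147 and 207 CPM per kb. H4 genes had medians of 0, 3.22 and 3.11 CPM per kb, and H3 genes of 2.25, 3.39 and 3.12. Among linker genes, H1f0 was at 46.4, 49.9 and 75.1 CPM per kb, H1fx at 34.4, 37.8 and 38.5, and Hist1h1c at 6.45, 15.6 and 3.75.

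The comparison of the Dgcr8 knockout with the Dicer knockout leaves out the WT library. Of 54 replication-dependent genes tested, 13 were 2-fold lower in the Dgcr8 knockout (24.1%, background 5.05% of 12986 genes) and 1, Hist2h4, was higher (background 4.15%). For 11 of the 13 only the Dicer knockout reached 1 CPM, and for Hist2h4 only the Dgcr8 knockout did. The other 2 were Hist1h1c, at 0.414 of the Dicer knockout (0.295 to 0.573), and Hist3h2a, at 0.320 (0.194 to 0.509). In all, 51 of the 54 log2 ratios lay below 0, beside 6458 of 12986 over all genes. Their median was -0.47, beside 0.00 over all genes. The 54 are not independent, since near-identical copies may share reads, and 17 of them reached 1 CPM in 1 library only. Among replacement genes none was 2-fold lower and only H2afy3 was 2-fold higher. H3f3a was 1.21 times the Dicer knockout (1.18 to 1.24), H2afy2 1.27 times (1.12 to 1.44), H3f3b 0.764 (0.737 to 0.791) and H2afj 0.693 (0.592 to 0.810).

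Genes that make and load histones were counted in 4 lists, to be read against the share of all genes, 14.3% higher and 8.02% lower by 2-fold in the Dgcr8 knockout, against 16% and 9.7% in the Dicer knockout. Of 29 genes for stem-loop histone mRNA processing and the shared cleavage machinery, 0 were 2-fold higher and 1 was lower in the Dgcr8 knockout, with 0 and 2 in the Dicer knockout. Slbp, which encodes the stem-loop binding protein, was at 120 CPM in the Dgcr8 knockout, 107 CPM in the Dicer knockout and 196 CPM in WT, ratios of 0.613 (0.571 to 0.657) and 0.546 (0.509 to 0.586). Ncbp2, which encodes the small cap-binding subunit, was at 68.8, 61.8 and 147 CPM, and Snrpd3, an Sm protein gene, at 95.4, 108 and 178 CPM. Lsm1, of the complex that starts mRNA decay, was at 34.3, 20.9 and 51.6 CPM, and Cstf3, a cleavage factor subunit gene, at 5.12, 9.59 and 10.6 CPM. The U7-specific genes Lsm10 and Lsm11 and the histone gene coactivator Npat had ratios to WT of 0.841, 1.03 and 1.23 in the Dgcr8 knockout, against 0.936, 1.04 and 0.993 in the Dicer knockout. The list medians were 0.13 and 0.05 (log2), beside 0.11 and 0.10 over all genes.

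Among histone chaperones, 2 of 24 were 2-fold higher and 0 lower in the Dgcr8 knockout, with 1 and 1 in the Dicer knockout. Ubn1 and Ubn2, partners of HIRA in loading H3.3, were at 49.3 and 39.0 CPM in the Dgcr8 knockout, 35.3 and 50.3 CPM in the Dicer knockout and 23.7 and 18.9 CPM in WT. Hira itself was at 97.1, 90.2 and 98.6 CPM, Daxx at 78.5, 78.6 and 74.6 CPM and Atrx at 135, 191 and 150.5 CPM. Asf1b, a chaperone of new H3 and H4 in S phase, was at 88.3, 31.7 and 64.5 CPM, and Npm3, a nucleoplasmin family gene, at 103, 81.8 and 142 CPM. Of 14 genes that handle H2A.Z and macroH2A, 1 was 2-fold higher in the Dgcr8 knockout, with 2 in the Dicer knockout, and 0 were lower in either. Ino80, the remodeller gene, was at 76.2, 79.9 and 33.8 CPM, the deacetylase gene Hdac1 at 409, 578 and 268.5 CPM, Dmap1 at 43.7, 38.4 and 62.8 CPM and the remodeller gene Hells at 166, 135 and 219 CPM.

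S phase genes showed no common direction. Of 22, 2 were 2-fold higher and 0 lower in the Dgcr8 knockout, and 2 were higher and 3 lower in the Dicer knockout, with medians of 0.07 in each. The pocket protein gene Rbl2 was at 37.4, 24.5 and 8.66 CPM and the cyclin gene Ccne2 at 46.1, 46.7 and 20.5 CPM, in the Dgcr8 knockout, the Dicer knockout and WT. The replicative helicase gene Mcm5 was at 622, 333 and 721 CPM and E2f4 at 221, 118 and 284 CPM, both lowest in the Dicer knockout. Of 4 neural markers, Pax6 was at 5.93, 15.4 and 0.201 CPM and Neurod1 at 1.44, 17.3 and 1.41 CPM, highest in the Dicer knockout. Sox1 was at 20.5, 19.2 and 7.45 CPM and Tubb3 at 167, 129 and 126 CPM, highest in the Dgcr8 knockout. By 2-fold, 2 of 4 were above WT in the Dgcr8 knockout, 3 of 4 in the Dicer knockout and 0 below it in either. Over all genes, 14.3% and 16% were above it, and 8.02% and 9.7% below. Summed neural markers were 195, 180 and 135 CPM, and the part of other cell types or of cell cycle phase in the histone differences was not tested.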

How the data were processed

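Poly(A)-selected RNA of 3 cultures was made into stranded libraries, per the labels' protocols. Bowtie (version not given) and the build mm9 are named per the submitters' processing notes. Which tool and annotation gave the counts, and what was done with reads matching several genes, is not given in the sources used. The deposited table holds whole-number counts, 1 row per RefSeq entry and 1 column per library, and empty cells were read as 0.

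CPM were computed from the column totals. A gene counted as tested in a comparison when 1 of its libraries, or both, reached 1 CPM, and its log2 ratio used CPM + 1, so changes of low genes are understated. Ratios of CPM have exact conditional binomial 95% intervals, and a gene at 0 was set against a floor of 3 counts in that library. Intervals cover counting error only. A fold against the floor takes the count of the other library as exact, so the error of that count is not covered. TMM factors came from edgeR 4.0.16 (R 4.3.3), other values from Python 3.11.15. Ratios and calls were tried on simulated counts that held counting error only, for 4-fold changes of genes at 5 CPM or more. Lower genes and reads shared between copies were not covered, so calls of low members remain unchecked.

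The members and gene lists were chosen with earlier results of these data known. Values were named for the 4 genes of each histone type with the most counts and for every member 2-fold from WT in a knockout. Of each other list, up to 4 genes with the largest ratios were chosen. For stem cell markers, however, only Dppa5a is given in CPM, and feeder and stromal markers are given only as a sum. The remaining replacement, Hist2 and Hist3 genes, Hist1h2ah, Hist1h2ba, Hist1h4f, Slbp, Lsm10, Lsm11, Npat, Hira, Daxx and Atrx were added after their values were seen. Alternatives were a pseudocount of 0.1 or 5, a floor of 5 CPM or no floor, folds of 1.5 and 4, and scaling by TMM or median-ratio factors. Others moved H2afx between classes, and left out the member with the most counts or repeats of identical rows. Counting through a single member per type was chosen after seeing the data. The small RNA table was not used here.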

Additional observations from a re-analysis of the deposited data

Results flagged for a closer look

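Hist3h2ba lay on opposite sides of WT, with 0 counts in the Dgcr8 knockout, 45 in the Dicer knockout and 9 in WT. It was under 1 CPM in both the Dgcr8 knockout and WT, so its lower side did not count as tested. Its neighbour Hist3h2a also lay on opposite sides, at 0.476 and 1.49 of WT, so that the Dgcr8 knockout was at 0.320 of the Dicer knockout. The difference between the knockouts was not tested, since there is 1 library of each.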

How the results depend on the processing

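No paired analysis was possible because each genotype has 1 library, and for the same reason no library could be left out. Counts of members past the fold were the least stable values. Of replication-dependent genes, 11 differed 2-fold from WT in the Dgcr8 knockout, but 0 with a pseudocount of 5, 0 with a floor of 5 CPM, 0 at 4-fold and 22 at 1.5-fold. Of these 22, 21 were lower and 1 higher, where 17.7% and 27.1% of all genes were. In the Dicer knockout 7 differed from WT, but 1 with a pseudocount of 5, 1 with that floor and 0 at 4-fold. Between the knockouts 14 differed, but 0, 2, 24 and 2 under the pseudocount of 5, the floor of 5 CPM, 1.5-fold and 4-fold. Of the 24, 23 were lower in the Dgcr8 knockout and 1 higher, where 12.5% and 12.6% of all genes were. Of replacement genes, 0 differed 2-fold from WT in either knockout, but 1 in the Dgcr8 knockout with a pseudocount of 0.1, 1 there with median-ratio scaling, 10 there at 1.5-fold, and 3 in the Dicer knockout at 1.5-fold. The 1 that differed between the knockouts became 0 with a pseudocount of 5, with a floor of 5 CPM and at 4-fold. Dropping the floor could not change the 2-fold counts. On CPM + 1, a gene under 1 CPM in both libraries cannot reach 2-fold. The summed replication-dependent ratio to WT, 0.855 in the Dgcr8 knockout, was 0.777 with median-ratio scaling, 0.789 with TMM, 0.753 with H2afx in that class and 0.931 with a single member per type, a setting chosen after seeing the data. For the Dicer knockout, 1.22 became 1.129, 1.134, 0.952 and 1.545 under the same settings, so placing H2afx there turned its direction. The Dgcr8 to Dicer knockout ratio, 0.701, was 0.791 with H2afx and 0.602 with a single member per type. The summed replacement ratio of the Dgcr8 knockout, 0.876, was 0.795 with median-ratio scaling, 0.808 with TMM, 0.894 without H2afx and 1.01 without H2afz. For the Dicer knockout, 0.900 became 0.832, 0.836, 0.915 and 1.014, so without H2afz both lay close to 1 and no direction is left. Leaving out H2afz was not combined with another scaling. Between the knockouts, 0.974 became 0.956 with median-ratio scaling and 0.996 without H2afz. The replication-dependent share of histone counts was 8.57%, 11.76% and 9.97% in the Dgcr8 knockout, the Dicer knockout and WT without H2afz, 11.75%, 14.12% and 13.65% with H2afx, and 0.890%, 1.43% and 0.838% with a single member per type. With identical rows used a single time, the replication-dependent ratios were 0.876 and 1.23 to WT, and 0.711 between the knockouts. Of the 112 ratios of named genes, 12 moved past their interval with TMM and 13 with median-ratio scaling. Ratios near 1 of Hist1h2ad, Hist1h2ag, Hist1h2ae and Hist1h3b, which no rule called, crossed 1 under both scalings. Each change follows from how its setting is built, and no other cause was tested. Depth limits the replication-dependent genes outside H2A, most of which had under 60 counts in each library.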
